A study of Mus musculus with 18 samples.

Results

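The control libraries of the 2 RNA-sequencing experiments of this study were compared with each other. They are all 9 WT libraries among 18 in the series: 6 of RNA on the ribosomes of adipocytes of epididymal white adipose tissue (eWAT), isolated by translating ribosome affinity purification (TRAP), and 3 of total RNA of adipocytes grown in culture from the stromal vascular fraction (SVF) of inguinal white adipose tissue (iWAT). Membership followed the sample labels alone. The study asked how the transcription factor IRF3 acts in adipocytes, and the other 9 libraries, with adipocyte IRF3 deleted or made constitutively active, were used here only in 1 alternative fit. The question addressed was which transcripts each kind of WT adipocyte library holds and the other lacks.

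The WT TRAP mice were C57BL/6 Ad-NuTRAP animals fed a high-fat diet (HFD) for 8 weeks at thermoneutrality, and frozen epididymal tissue was used. In such mice Cre expressed from the adiponectin promoter turns on a GFP-tagged ribosomal protein L10a in adipocytes, and an antibody to GFP pulls down the tagged ribosomes. The WT cultures came from the iWAT SVF of IRF3-2D mice on C57BL/6, whose constitutively active Irf3 allele stays silent without Cre. These cells were differentiated with insulin, IBMX, dexamethasone and rosiglitazone, kept in insulin and rosiglitazone, transduced with AAV-GFP on day 6 and harvested on day 8. The study's methods name mice of both sexes as the source of SVF in one sentence and fat pads of male mice in the next. Every culture had received AAV, and none was left untransduced. Depot, diet, housing, culture medium, AAV, RNA isolation and apparently sex differ together between the 2 groups and cannot be told apart. For sex this rests on the X inactivation RNA Xist, at 736 to 771 CPM in the cultures and at most 0.128 CPM in TRAP. No RNA of the whole tissue before pull-down was analysed here, so the share of ribosome-bound RNA that comes from adipocytes has no measure of its own. In addition, fewer cells of a type and less RNA per cell cannot be told apart in bulk RNA.

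White adipocytes store triglyceride in a large lipid droplet, release fatty acids on demand and secrete hormones such as leptin and adiponectin. Their differentiation is driven by PPARγ and C/EBPα, and rosiglitazone is a direct ligand of PPARγ. Visceral and subcutaneous depots arise from different precursors and keep different sets of developmental transcription factors in culture, among them Hox, Tbx and Irx genes. The SVF is a mixture of precursor cells, fibroblasts, macrophages, endothelial cells and other cells, of which adherent ones can persist beside the adipocytes that form in the dish. Ribosome pull-down leaves out RNA that cytoplasmic ribosomes do not carry, such as nuclear noncoding RNA and the mRNA translated inside mitochondria.

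WT TRAP libraries held 25729179 to 37933320 reads assigned to transcripts and WT cultures 21541334 to 25403517. Correlations of log2 CPM, counts scaled to library size, were 0.977 to 0.99 among TRAP libraries, 0.988 to 0.989 among cultures and 0.811 to 0.831 between the groups. The first principal component, with 85.8% of the variance, separated the groups, and the second, with 4.6%, separated TRAP replicates 1 and 2 from replicates 3 to 6. The labels name no batch, so counts over all genes are also given within these subsets, as are those of some lists. TRAP replicates 1 and 2 were closer to each other than other pairs, with a chi-square per gene of 2.54 against 8.41 to 129.9 for the other TRAP pairs, but they differed beyond sampling noise and were kept as 2 samples. The labels call all samples biological replicates without naming the animal or culture, so p-values measure the spread between these samples only.

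Of 16454 genes tested, 7719 met both cutoffs of the study, that is, adjusted p no higher than 0.05 and a log2 fold change of 1 or more in either direction, which is 46.9% of genes. Expression was higher in WT TRAP for 2862 genes (17.4%) and lower for 4857 (29.5%). Scaling by library totals alone shifted this split to 1746 higher and 6115 lower, since it moved the median log2 fold change of all genes from -0.07 to -0.53. With TRAP replicates 1 and 2 only, 8141 genes were called, and with replicates 3 to 6 only, 7436. The groups did not overlap for 77.1% of genes, and each list below is read against these shares. Changes of 16-fold or more were found for 380 genes higher and 901 lower in TRAP. At least 1 CPM was reached by 11953 to 12381 genes in TRAP libraries and by 13630 to 13744 in cultures.

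**Figure D1:**
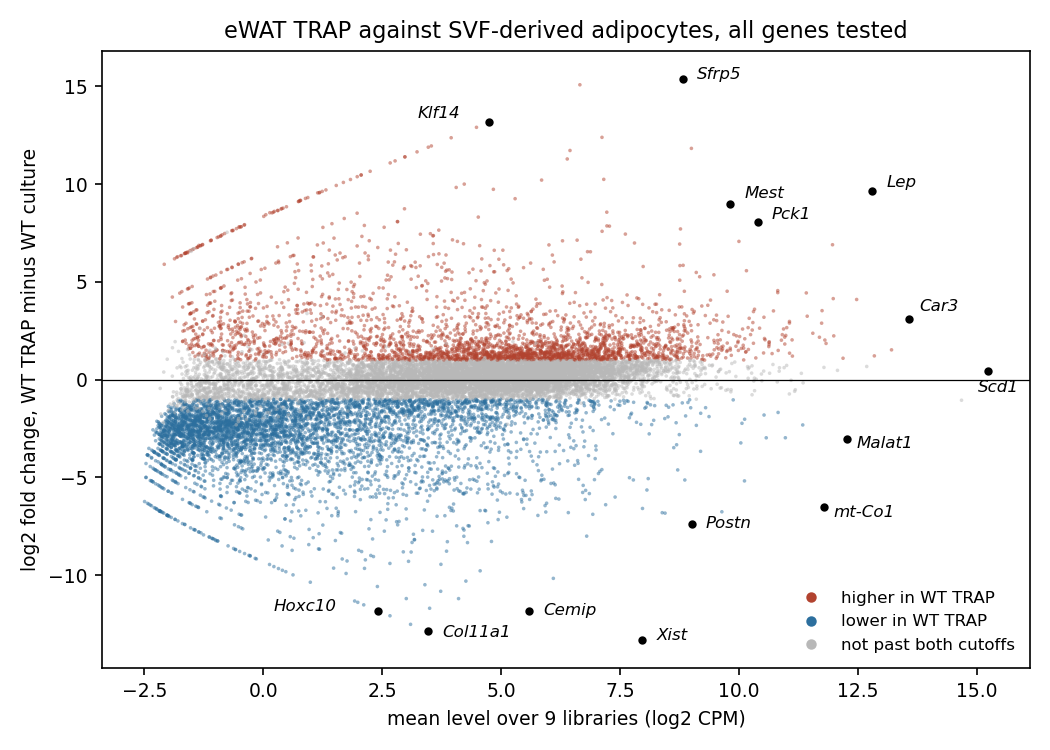
Log2 fold change of WT TRAP minus WT culture (y axis) against the mean level over the 9 WT libraries in log2 CPM (x axis) for each of the 16454 genes tested. Red and blue points met both cutoffs, 2862 higher and 4857 lower in TRAP, grey points did not, and the oblique rows of points at the left hold genes with few or no reads in 1 group, whose fitted values depend on the prior count.

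The largest differences lay in genes that were close to absent on 1 side. Protein-coding genes that averaged 3 or more in log2 CPM were ranked by fitted log2 fold change. The 10 largest positive changes were those of Sfrp5, Klf14, Crtac1, Slc5a7, Gpr50, Trdn, D430019H16Rik, Tph2, Cacna1e and Cadps. Klf14, Crtac1, Gpr50 and Trdn had no culture read, so their places depend on the prior count. Against a floor of 3 reads per culture their log2 fold changes were at least 8.47, 8.21, 7.68 and 7.19. Sfrp5, a secreted inhibitor of Wnt signalling that enlarging adipocytes make (chr19:42197971-42202252), was at 478 to 868 CPM (median 638) in TRAP, while the cultures held a single read in all, a ratio of 54096 (95% counting interval 9709 to 2136700). The TRAP libraries also held Klf14, a transcription factor gene linked to fat distribution, at 28.8 to 53.7 CPM (median 35.3), against no read in any culture, so that it was at least 354-fold higher against a floor of 3 reads per culture. For Slc5a7, which encodes the choline transporter of cholinergic neurons, TRAP held 140.4 to 282 CPM (median 215) and the cultures 3 reads in all. Tph2, the neuronal enzyme of serotonin synthesis, followed the TRAP subsets. It was at 21.8 and 19.8 CPM in replicates 1 and 2 and between 156 and 194 CPM in replicates 3 to 6, and the cultures held 4 reads. For Sfrp5, Klf14, Slc5a7 and Tph2, no TRAP library came near a culture.

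By the same fitted value, the 10 largest negative changes were those of Col11a1, A2m, Cemip, Ngfr, P4ha3, Epha3, Ptn, Itga8, Fbn2 and Ccn4. Col11a1 and A2m had no TRAP read, so their places at the head depend on the prior count. Against a floor of 3 reads per TRAP library their log2 fold changes were -7.99 and -7.63 or beyond. The fitted changes of Cemip (-11.83) and Ngfr (-11.69), which had TRAP reads, were larger than these bounds. Col11a1, a chain of a fibrillar collagen, was at 32.3, 32.9 and 32.5 CPM in the cultures and had no read in any TRAP library, at least 254-fold lower. Cemip, which takes part in hyaluronan breakdown, was at 137, 144 and 148 CPM in the cultures, and 6 reads were found in the 6 TRAP libraries together. Ngfr, the low-affinity neurotrophin receptor carried by many mesenchymal precursors, was at 31.9, 36.9 and 31.9 CPM in culture and held 1 read in TRAP.

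A gene was called TRAP-only where every TRAP library had at least 1 CPM and every culture 3 reads or fewer, and culture-only the other way round. There were 75 TRAP-only genes, 58 of them protein-coding, and 134 culture-only genes, 114 of them protein-coding. With TRAP replicates 1 and 2 alone, 108 and 350 genes met these limits, and with replicates 3 to 6 alone 88 and 164. Among the most abundant TRAP-only genes were Sfrp5, Slc5a7, a transcript that the annotation used here does not hold (ENSMUST00000238457.1), D430019H16Rik, Tph2, Grid1, Klf14, Crtac1 and Cadps. The most abundant culture-only genes were Xist, Cemip, H19, Tbx15, Epha3, Ngfr, Col11a1, Ptn, Ndufa4l2 and A2m. Xist, the RNA that coats the inactive X chromosome, was at 771, 746 and 736 CPM in the cultures and at 0.0323 to 0.128 CPM in TRAP. The Y-linked helicase gene Ddx3y was read in both, at 215 to 301 CPM (median 245) in TRAP and at 56.8, 54.7 and 53.6 CPM in the cultures. RNA of X inactivation and of the Y chromosome was therefore present side by side in each culture.

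Adipocyte markers were read in both groups, as the labels say, and most were higher in TRAP. Of 24 markers, 19 were higher, none was lower and 5 were not called, with a median log2 fold change of 2.03 against -0.07 over all genes. The list held 72703 to 91503 CPM in sum in TRAP and 15874 to 16019 in the cultures. Markers of precursor cells and fibroblasts (15 of 20 lower in TRAP) and of macrophages (16 of 17 lower) moved the other way in the same libraries, and their part in these differences was not tested. Leptin (Lep), the hormone that reports fat mass, stood apart. It was at 7516 to 14406 CPM (median 10687) in TRAP and at 12.4, 13.1 and 13.3 CPM in the cultures (log2 fold change 9.68, standard error 0.34, adjusted p = 1.63e-09 by edgeR, quasi-likelihood, Benjamini-Hochberg). The highest TRAP replicate held nearly as much again as the lowest, yet all were far above the cultures. Adiponectin (Adipoq) was at 1777 to 3649.8 CPM (median 2108) in TRAP and 605, 641 and 625 CPM in culture (log2 fold change 2.02). The 2 highest of these TRAP values, 3649.8 and 3608 CPM, were those of replicates 1 and 2, and the others reached at most 2193. A lipid droplet gene and a triglyceride synthesis gene are named for their large changes. Cidec, which fuses lipid droplets, was at 5642 to 6112 CPM (median 5843) against 336, 334 and 326 CPM (log2 fold change 4.15), and Dgat2, which makes triglyceride from diacylglycerol, at 7325 to 9212 CPM (median 8416) against 468, 506 and 469 CPM (log2 fold change 4.10).

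The transcription factor at the head of adipocyte differentiation was not called. Pparg was at 214 to 253 CPM (median 235) in TRAP and at 206, 196 and 201 CPM in culture, a log2 fold change of 0.22 (standard error 0.0634), while the groups did not overlap, and with library totals alone the log2 fold change was -0.23. Slc2a4, the insulin-responsive glucose transporter GLUT4, was at 175 to 321 CPM (median 260.1) and 167, 153 and 153 CPM (log2 fold change 0.73, adjusted p = 0.00222 in edgeR) and was not called. The fatty acid binding protein gene Fabp4 was higher, at 4279 to 5357 CPM (median 4661) against 1387, 1273 and 1308 CPM, as was Lpl, the lipase that frees fatty acids from lipoproteins, at 10741 to 12783 CPM (median 12254) against 4199, 4147 and 4193 CPM. Their log2 fold changes were 1.86 and 1.53. Adipsin (Cfd), a complement protease secreted by adipocytes, was not called and turned with the TRAP subset. It was at 1450.3 and 1487 CPM in replicates 1 and 2, above the 1119, 1189.6 and 1238 CPM of the cultures, and between 344 and 564 CPM in the other 4, below them. The log2 fold change of Cfd was 0.35 with replicates 1 and 2 alone and -1.49 with replicates 3 to 6.

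Ranked by TPM, transcript abundance corrected for length, which allows a comparison of genes of unequal length, the mean of both groups was highest for the noncoding gene Gm26917, which ranged from 10648 to 73759 TPM among TRAP libraries. What its reads stem from was not tested. An alternative fit that left it out with mitochondrial, ribosomal and abundant nuclear RNA called 7801 genes. The next places in TRAP were taken by Car3, a carbonic anhydrase of adipocytes, then by Scd1, Fabp4, Hp, Cidec, Dbi, Actb, Dgat2 and Sparc. Car3 had a mean of 19956 TPM in TRAP, which ranged from 14190 to 26431, and was ranked 24 in culture. The fatty acid desaturase gene Scd1 was ranked 3 in TRAP and 2 in culture. Cidec was ranked 6 in TRAP and 170 in culture, and Lep 13 and 9314. Rank 10 in TRAP was Sparc, a matrix protein of adipocytes and fibroblasts, which was rank 16 in culture.

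**Figure D2:**
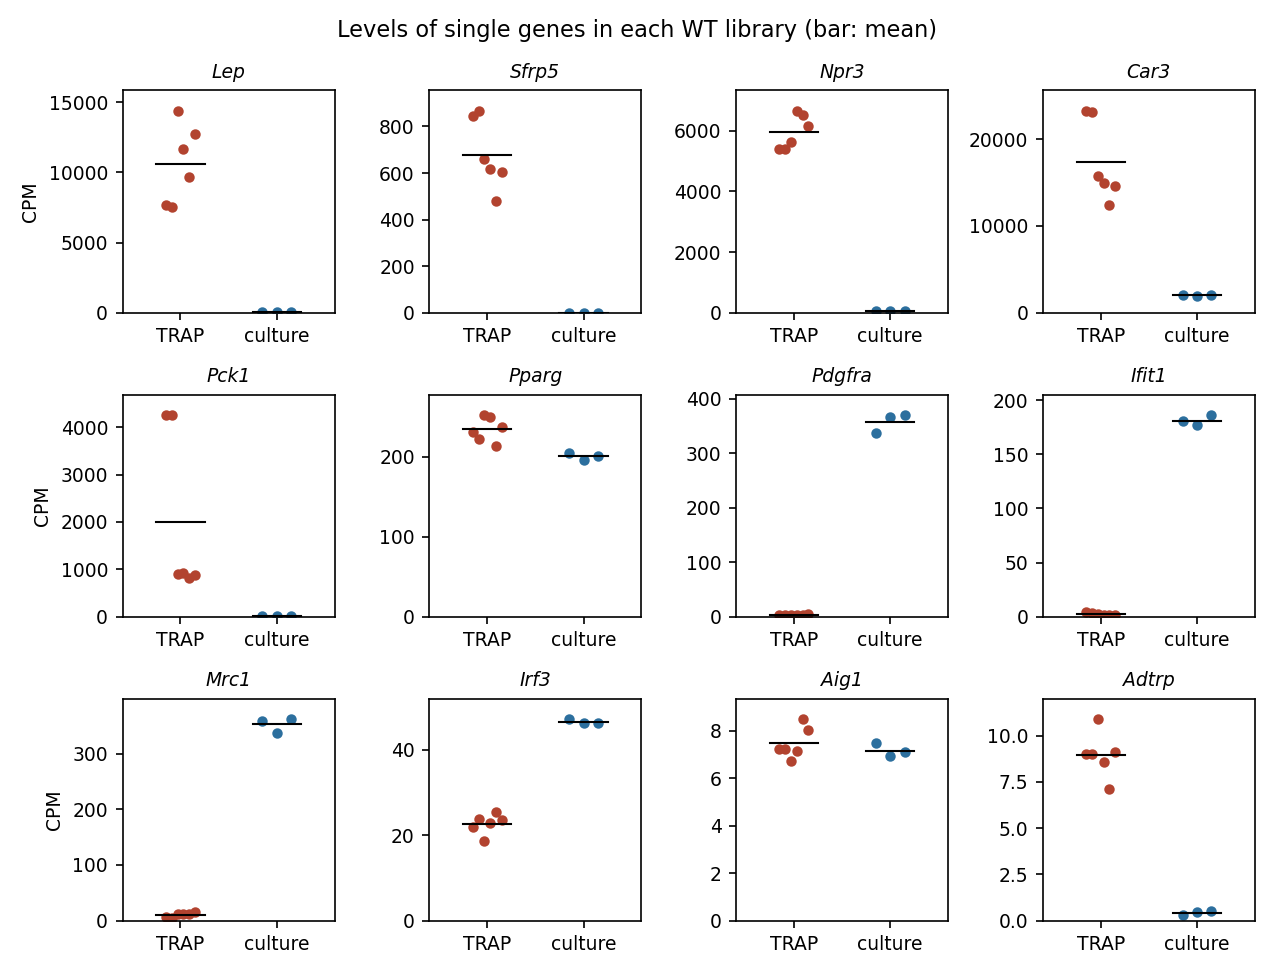
CPM (linear y axis, starting at 0) of 12 genes in each of the 6 WT TRAP libraries (red) and 3 WT cultures (blue), with the group mean as a bar. Lep, Sfrp5, Npr3, Car3, Pck1, Pparg and Adtrp lie above the cultures in every TRAP library, Pdgfra, Ifit1, Mrc1 and Irf3 lie below, and Aig1 overlaps.

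Genes that obesity raises in fat were the list with the highest median. Of 14, 12 were higher in TRAP and 2 were lower, with a median log2 fold change of 3.33. Mest, an imprinted gene whose level follows fat mass expansion, was at 1029 to 1762 CPM (median 1204) in TRAP and 2.46, 2.97 and 2.43 CPM in the cultures (log2 fold change 9.01, standard error 0.29, adjusted p = 1.02e-09 in edgeR). Trp53inp2, an autophagy and nuclear receptor cofactor gene, was at 1472 to 2249 CPM (median 1805) against 159.6, 165 and 162 CPM. Cav1, the caveolin that coats the many surface pits of adipocytes, was at 3447 to 5405 CPM (median 4515) against 972, 1001 and 993 CPM. Their log2 fold changes were 3.48 and 2.17, and the groups were far apart in both. The members that were lower were Aldh1a3, a retinaldehyde dehydrogenase gene, and the adipokine gene Apln, which was at 0.568 to 0.899 CPM (median 0.754) against 28.4, 33.4 and 34.3 CPM.

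The cultures had received rosiglitazone, and targets of PPARγ agonists were compared next. Of 15, 6 were higher in TRAP, 1 was lower and 8 were not called, while 3 were lower with library totals or with TRAP replicates 1 and 2 alone. Pck1, the enzyme of glyceroneogenesis, had 6.6, 8.5 and 7.68 CPM in the cultures. TRAP replicates 1 and 2 were at 4265 and 4250.5 CPM and the other 4 between 811 and 923 CPM, so that both subsets lay above the cultures (log2 fold change 8.04). Acsl1, which activates fatty acids with coenzyme A, was at 2294 to 3037 CPM (median 2516) against 748, 758 and 711 CPM. It was higher in every TRAP library, by a log2 fold change of 1.83. Fabp3, the heart-type fatty acid binding protein, was the member that was lower, at 0.0758 to 0.217 CPM (median 0.156) against 0.438, 0.79 and 0.32 CPM.

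Genes of fatty acid synthesis mostly met neither direction's cutoffs. Of 18 lipogenic genes, 15 were not called, 2 were higher in TRAP and 1 was lower, or 3 with library totals. The median log2 fold change was 0.20, and it turned to -0.01 with upper-quartile scaling and to -0.26 with library totals alone. Scd1 was at 32109 to 49953 CPM (median 41149) in TRAP and 30826, 30946 and 30102 CPM in culture (log2 fold change 0.46, adjusted p = 0.0157 in edgeR, -0.0071 with library totals), and Fasn, the fatty acid synthase, at 6016 to 9312 CPM (median 7384) against 5026, 4403 and 4663 CPM (log2 fold change 0.68). Neither was called, since both stayed below the fold-change cutoff. Pnpla3, a lipid droplet acyl hydrolase gene, was higher, at 277 to 312 CPM (median 290.4) against 71.1, 64.2 and 68 CPM. Scd3, a desaturase gene of high similarity to Scd1, was lower, at 0.765 to 1.24 CPM (median 0.981) against 11.7, 9.45 and 12.1 CPM. Reads that Scd paralogs share could be split between them by Salmon, so the values of Scd3 are uncertain.

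Of 18 genes of fatty acid oxidation, 9 were higher in TRAP, against 17.4% of all genes, and none was lower, with a median log2 fold change of 0.85. This count depended on the scaling, with 5 under upper-quartile scaling and 2 under library totals, where 1746 of all 16454 genes were higher. Acadm, the medium-chain acyl-CoA dehydrogenase, was at 585 to 679 CPM (median 619) against 233, 223 and 233 CPM. All TRAP libraries lay above all cultures, with a log2 fold change of 1.44. Of the cholesterol synthesis genes, 9 of 23 were lower in TRAP and 2 higher, with a median of -0.68. The counts were 11 lower and 1 higher with TRAP replicates 1 and 2 alone (median -0.92), 9 and 4 with replicates 3 to 6 (median -0.56), and 12 and 1 with library totals (median -1.14). Sqle, the squalene epoxidase, was at 11.6 to 16.1 CPM (median 15.1) in TRAP and 65, 66.3 and 67.4 CPM in culture. Hmgcs1, which makes HMG-CoA for the same pathway, was an exception at 839.6 to 1160.5 CPM (median 973) against 237, 251 and 256 CPM (log2 fold change 2.01).

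Receptors of metabolites and hormones on the adipocyte surface gave 9 of 18 higher and 6 lower. Npr3, the clearance receptor for natriuretic peptides, was at 5408 to 6661 CPM (median 5891) in TRAP and 49.7, 50.5 and 49.2 CPM in the cultures (log2 fold change 6.90, standard error 0.13, adjusted p = 5.27e-11 in edgeR). Ptger3, a prostaglandin E receptor that inhibits lipolysis, was at 274 to 421 CPM (median 305) against 2.63, 2.82 and 2.4 CPM (log2 fold change 6.99). These were the largest changes in the list, and the groups were separated by more than the whole TRAP range. The β3-adrenergic receptor Adrb3, through which catecholamines drive lipolysis, was not called, at 175 to 507 CPM (median 238) and 176, 178 and 174 CPM, with 1 TRAP library within the culture range. Lpar1, a receptor for lysophosphatidic acid, was lower in TRAP, at 0.449 to 1.5 CPM (median 0.976) against 49, 49 and 50.6 CPM.

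Endocrine genes outside this list were also unequal. Of 15 genes of the growth hormone and IGF axis, 4 were higher and 7 lower in TRAP, with a median log2 fold change of -1.74 although the summed level was above that of the cultures, at 5129 to 5492 CPM in sum in TRAP and 1465 to 1526 in the cultures. This median was -0.38 with TRAP replicates 1 and 2 alone and -1.85 with replicates 3 to 6. The growth hormone receptor Ghr was at 2596 to 2837 CPM (median 2707) against 438, 454 and 452 CPM (log2 fold change 2.60), and Igfbp4, an IGF-binding protein, at 957 to 1040.1 CPM (median 983) against 277, 277 and 275 CPM. Other binding proteins were lower, with Igfbp2 at 0.0646 to 0.181 CPM (median 0.14) against 6.63, 6.55 and 8.47 CPM and Igfbp6 at 0.606 to 3 CPM (median 0.818) against 60.3, 59 and 57.4 CPM. Among 13 steroid, thyroid and retinoid receptors tested, 8 were higher and 3 lower, and the 8 became 5 with upper-quartile scaling and 2 with library totals. The progesterone receptor Pgr was at 13.9, 17 and 15.7 CPM in the cultures, with 1 read in the 6 TRAP libraries. The vitamin D receptor Vdr was lower in TRAP, at 0.18 to 1.16 CPM (median 0.72) against 6.63, 5.91 and 5.44 CPM. Insulin signalling genes were split, with 6 of 19 higher (2 with library totals, 8 with TRAP replicates 1 and 2 alone) and 4 lower. Pde3b, through which insulin restrains lipolysis, was at 705 to 1171 CPM (median 746) against 356, 341 and 353 CPM, while Slc2a1, the basal glucose transporter GLUT1, was at 11.1 to 14.7 CPM (median 13.6) against 87.2, 77.8 and 87.8 CPM (log2 fold change -2.67), and Trib3, a stress-induced Akt inhibitor, at 3.96 to 12.6 CPM (median 4.98) against 79.8, 77.1 and 77.8 CPM.

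**Figure D3:**
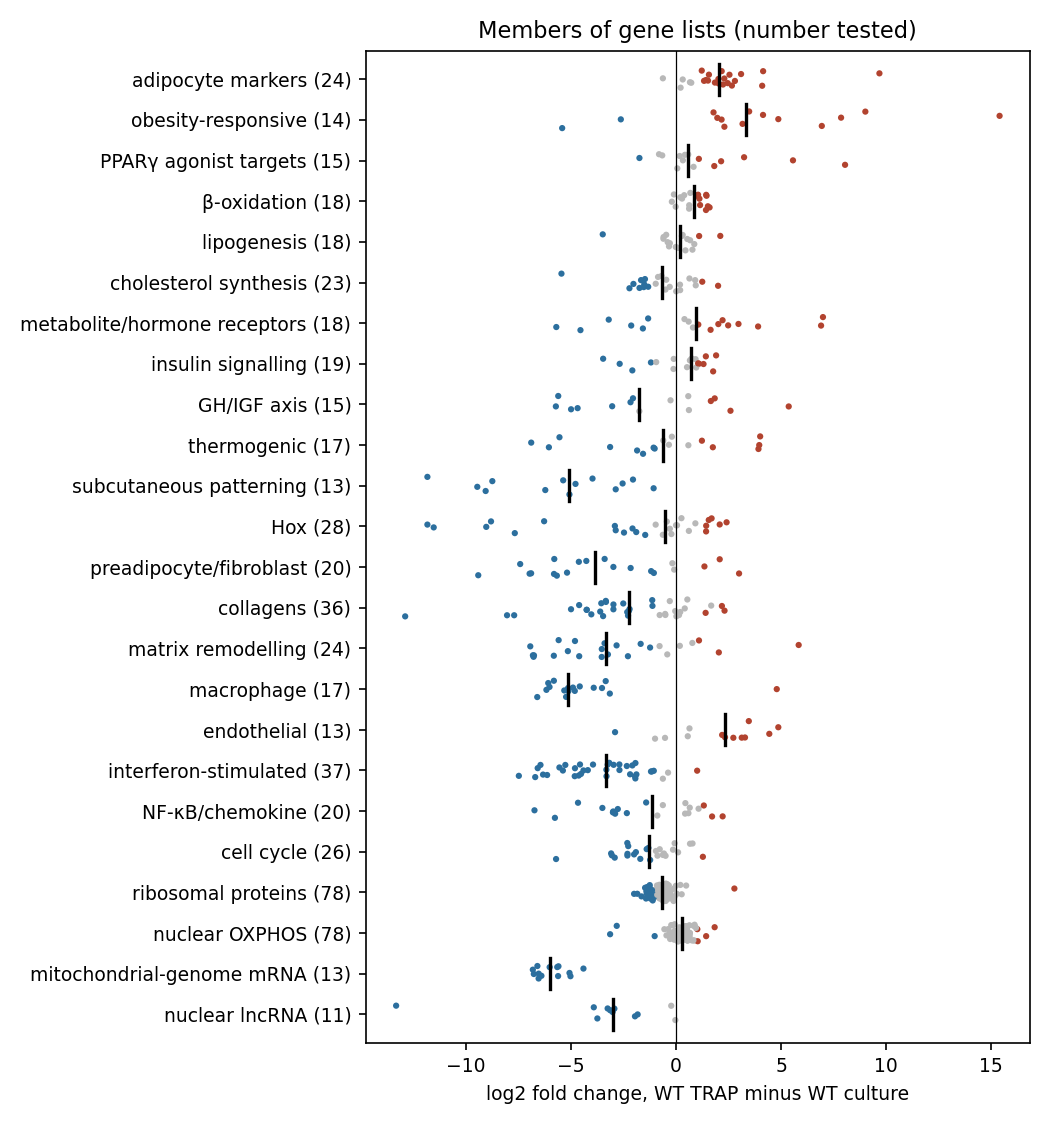
Log2 fold change of WT TRAP minus WT culture (x axis) for every tested member of 24 gene lists (rows, with the number tested). Points are genes, red and blue where both cutoffs were met, and black bars are list medians, which run from -6.00 for mitochondrial-genome mRNA to 3.33 for obesity-responsive genes, with all genes at -0.07.

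Developmental patterning genes of subcutaneous fat were lower in the epididymal TRAP libraries. All 13 genes of the subcutaneous and limb or skin patterning list were lower in TRAP, against 29.5% of all genes, with a median log2 fold change of -5.06. Markers of precursor cells and fibroblasts, of which 15 of 20 were lower, moved with this list, and their part in it was not tested. Tbx15, a T-box factor of subcutaneous fat, was at 40.4, 41.4 and 36.8 CPM in the cultures and at 0 to 0.0898 CPM in TRAP. The Hox gene Hoxc10 was at 16.8, 15.2 and 14.9 CPM in culture and had no read in any TRAP library, at least 122-fold lower. Prrx1, a homeobox factor of limb mesenchyme, did not vanish from TRAP. It was at 20.6 and 19.3 CPM in replicates 1 and 2, between 82.4 and 96.6 CPM in the other 4, and at 271, 276 and 289 CPM in culture. Sfrp2, a modulator of Wnt signalling made by fibroblasts, was at 0.399 to 2.87 CPM (median 1.04) against 40.2, 46.4 and 40.4 CPM.

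Of 39 Hox genes, 28 were tested, of which 6 were higher in TRAP, 12 lower and 10 not called. The lower members named here lie toward the posterior end of the A, B and C clusters. Position in the cluster was noted after the values were seen, and no tally by position was made. Hoxa10 was at 12.8, 13 and 12.3 CPM in the cultures with no read in TRAP, at least 99-fold lower. Hoxa9, Hoxb9, Hoxc11 and Hoxc13, which were named here after their values were seen, were at most 0.0428, 0.0856, 0 and 0 CPM in TRAP against 11.4 to 13.3, 2.09 to 2.9, 0.768 to 1.02 and 2.12 to 2.43 CPM in culture. Hoxc8, a more anterior member of the C cluster, went the other way, at 42.1 to 46.3 CPM (median 42.9) in TRAP and 16.8, 16 and 15.4 CPM in culture (log2 fold change 1.44), with little spread in either group. Of 12 genes listed for visceral fat, 7 were tested and 3 were higher in TRAP, Hoxc8 among them. With library totals 1 was higher and 1 lower, and Hoxc8 was at 0.98 on the log2 scale, below the cutoff. Thbd, thrombomodulin, was at 122 to 279 CPM (median 147) against 11.2, 11.3 and 14.7 CPM, and Gpc4, a glypican of visceral fat, at 194 to 225 CPM (median 209) against 72.3, 80.7 and 81.6 CPM. Of the mesothelium-derived visceral factor Wt1, 0.329 to 2.91 CPM were found in TRAP and 0.236 to 0.448 CPM in culture, which was not called.

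**Figure D4:**
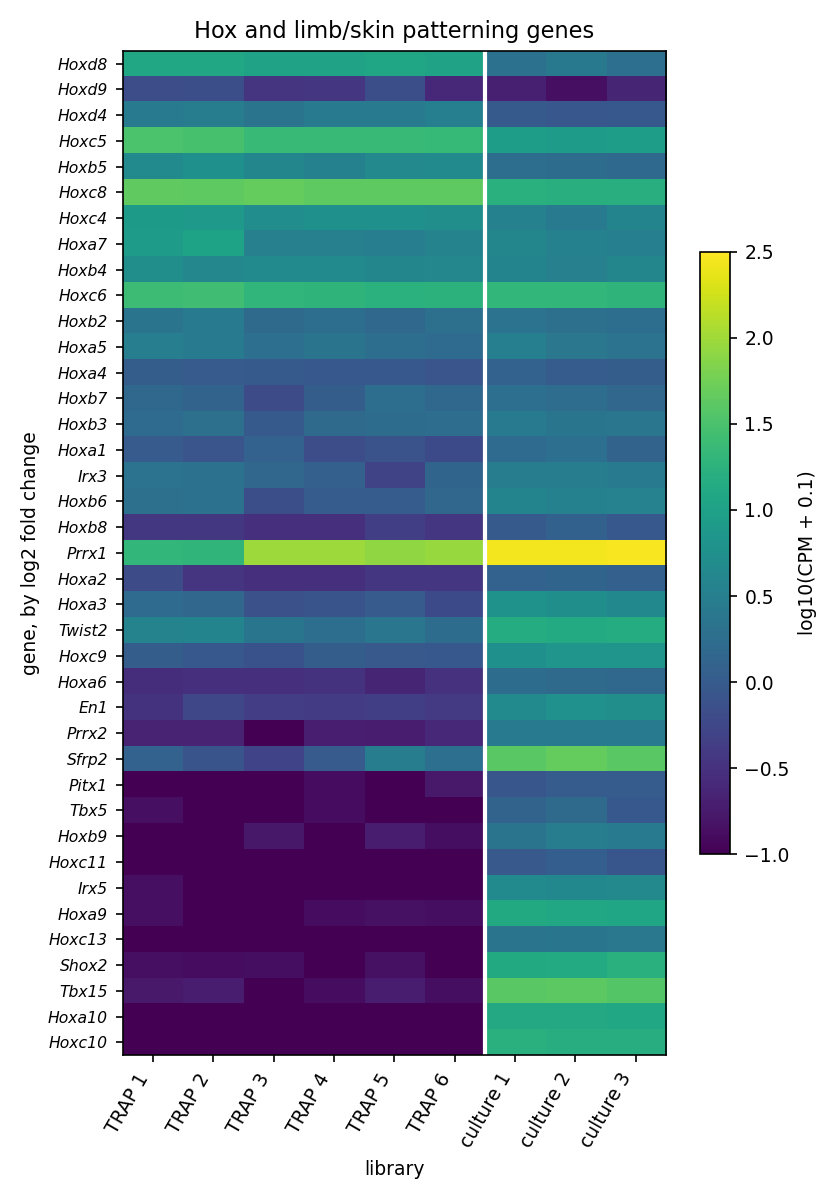
Level of the 39 Hox and subcutaneous patterning genes that were tested (rows, ordered by log2 fold change) in the 6 WT TRAP libraries and 3 WT cultures (columns). Colour gives log10(CPM + 0.1), and the lower rows, from Pitx1 to Hoxc10, are dark in every TRAP library and lit in every culture.

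Thermogenic genes did not follow 1 direction. Of 17 tested, 5 were higher and 8 lower in TRAP. Ucp1, the uncoupling protein of brown and beige fat, was too low to be tested, with at most 0.0969 CPM in TRAP and 0.064 CPM in culture. Kcnk3, a potassium channel that restrains thermogenesis, was higher, at 113 to 148 CPM (median 138) against 42.3, 35.7 and 41 CPM. Ebf2, a factor of brown adipocyte precursors, was lower, at 22.9 to 32 CPM (median 26.9) against 57.8, 53.8 and 55.4 CPM, and the beige precursor markers Tbx1 and Tnfrsf9 were at 0 to 0.0599 and 0 to 0.0969 CPM in TRAP against 2.26, 1.81 and 1.53 CPM and 3.5, 2.82 and 3.58 CPM. Cox7a1, a muscle and brown fat subunit of cytochrome oxidase, was at 1.07 to 2.05 CPM (median 1.43) against 13.3, 12 and 13.2 CPM.

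Genes of precursor cells and fibroblasts were mostly lower in TRAP. Of 20 markers, 15 were lower in TRAP and 3 higher, with a median log2 fold change of -3.82 and 2629 to 3546 CPM in sum in TRAP and 8440 to 8687 in the cultures. Pdgfra, the receptor that marks adipocyte precursors, was at 2.37 to 4.02 CPM (median 2.87) in TRAP and 336, 367 and 371 CPM in the cultures (log2 fold change -6.88). Fibronectin (Fn1) was at 48.6 to 129.8 CPM (median 87.9) against 3107, 3157 and 3177 CPM, and periostin (Postn) at 4.31 to 13.6 CPM (median 10.1) against 1529, 1514 and 1509.9 CPM. Dlk1, which blocks adipogenesis and is switched off in mature fat cells, was at 18.8, 20.1 and 17.2 CPM in the cultures and at 0 to 0.109 CPM in TRAP. All 4 were far lower in every TRAP library than in any culture. Vimentin (Vim), an intermediate filament also made by adipocytes, was the abundant exception, at 2177 to 3039 CPM (median 2823) against 1017, 1047 and 1072 CPM.

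Matrix genes were also mostly lower in TRAP. Of 36 collagen chains tested, 22 were lower in TRAP, 3 were higher and 11 were not called, with a median of -2.25. The fibrillar chain Col1a1 was at 569 to 1660.5 CPM (median 1192) against 5451, 5512 and 5645 CPM (log2 fold change -2.31), and Col24a1 at 0 to 0.0428 CPM against 3.6, 4.4 and 4.54 CPM. The chains that were higher were Col15a1, Col18a1 and Col23a1, of which the first pair lies at basement membranes, at 1283 to 1619 CPM (median 1409) against 529, 541 and 533 CPM for Col15a1. Of 24 matrix-remodelling genes, 17 were lower and 3 higher. The gelatinase Mmp2 was at 0.871 to 3.76 CPM (median 2.44) against 250.2, 239.5 and 262 CPM, Mmp13 at 0 to 0.0646 CPM against 1.85, 1.73 and 2.21 CPM, and thrombospondin Thbs1 at 525 to 1419.7 CPM (median 1036) against 3131, 3378 and 3492 CPM. Sparc was among those higher, at 5353 to 5921 CPM (median 5644) against 2580, 2689 and 2657 CPM. Contractile and cytoskeletal genes gave 12 of 20 lower and 2 higher. With the scaling used here their sum was above that of the cultures, at 5209 to 7306 CPM in TRAP against 3577 to 3950.2. All genes tested likewise summed to 1083000 to 1140900 CPM in TRAP and 804420 to 811680 in the cultures. No sum was taken with library totals, so the higher sum of this list may rest on the scaling. Tpm2, a tropomyosin of contractile cells, was at 0.0599 to 0.362 CPM (median 0.278) against 24, 21.8 and 24.1 CPM, and Ankrd1, a target of stretch and YAP signalling, was read in the cultures only, at 2.73, 2.56 and 2.17 CPM. Tuba1a, an α-tubulin, was higher in TRAP, at 2225 to 3812 CPM (median 3139) against 359, 391 and 393 CPM.

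**Figure D5:**
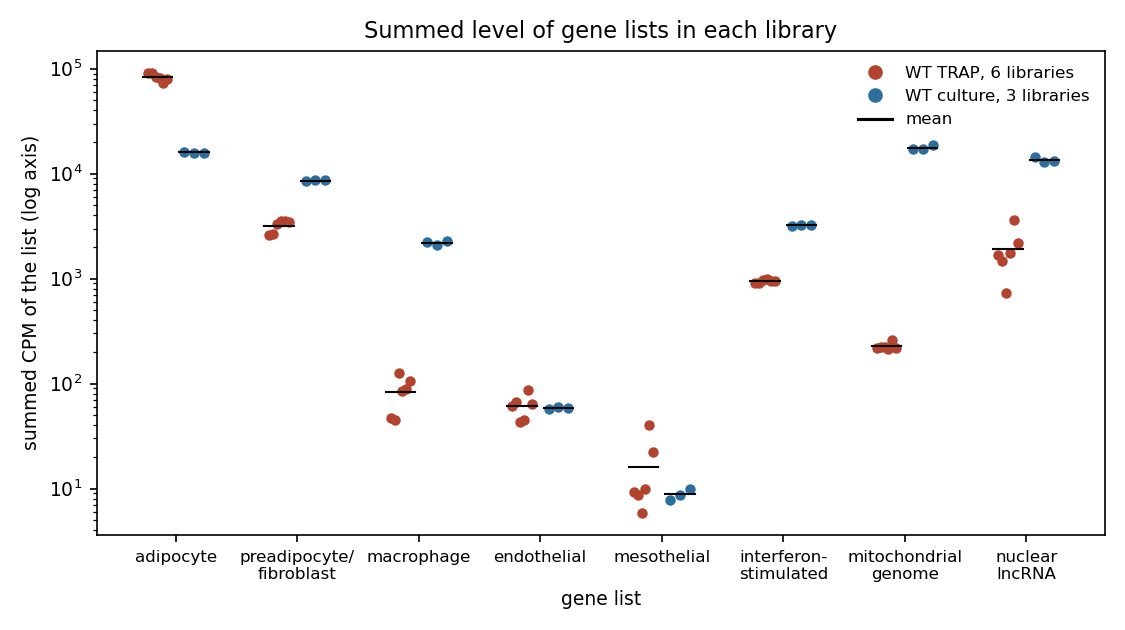
Summed CPM of 8 gene lists (x axis) on a log axis in each WT TRAP library (red, 6) and each WT culture (blue, 3), with the mean as a bar. Macrophage, interferon-stimulated, mitochondrial-genome and nuclear noncoding RNA genes are lower in every TRAP library than in any culture, and endothelial genes overlap.

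Macrophage markers were lower in TRAP. Of 17 tested, 16 were lower and Cd74, the MHC class II invariant chain, was higher, and the list held 45.4 to 125 CPM in sum in TRAP and 2113 to 2262 in the cultures. Mrc1, the mannose receptor of tissue macrophages, was at 5.42 to 14.8 CPM (median 11.7) in TRAP and 359, 337 and 363 CPM in the cultures, and Lyz2, the lysozyme of myeloid cells, at 10.7 to 26.7 CPM (median 18.4) against 627, 600.5 and 639 CPM. The complement gene C1qa was at 0.606 to 1.8 CPM (median 1.4) against 94.3, 80.8 and 89.1 CPM, and C1qc at 0.599 to 2.06 CPM (median 1.52) against 132, 122 and 137 CPM. No macrophage marker was at 0 in a whole group. The leukocyte gene Ptprc was lower as well, at 6.86 to 17.2 CPM (median 12.5) against 50.2, 44.4 and 47.2 CPM. Among lymphocyte markers 3 of 14 could be tested, of which 2 were lower and 1 higher in TRAP, and the list held 8.22 to 19 CPM in sum in TRAP and 45.6 to 51 in the cultures. The member that was higher was the T cell receptor gene Trac, at 0.53 to 1.2 CPM (median 0.984) in TRAP against 0.0673, 0.0753 and 0.064 CPM. Endothelial markers went the other way in 8 of 13 genes, although their sums overlapped, at 43.3 to 86.3 CPM in sum in TRAP and 57.7 to 60.3 in the cultures. Cldn5, a tight junction protein of endothelium, was at 3.75 to 6.86 CPM (median 5.88) against 0.101, 0.263 and 0.192 CPM, while Flt1, a VEGF receptor, was lower at 3.3 to 5.69 CPM (median 5.19) against 32.8, 36.6 and 35.9 CPM. Mesothelial genes were low in both, with 4 of 10 tested higher in TRAP and 1 lower. Their sum was 40.5 and 22.2 CPM in TRAP replicates 5 and 6 and 5.85 to 9.89 CPM in the other TRAP libraries. In the cultures it was 7.85 to 9.85 CPM. Muc16 was at 1.33 to 6.76 CPM (median 2.03) in TRAP, with no read in culture. Pericyte, Schwann cell and muscle markers were higher in 4 of 8 tested and lower in 3, and held 245 to 300.1 CPM in sum in TRAP and 109.8 to 116 in the cultures. None of 17 epididymal epithelium genes was tested, and their sum did not pass 0.728 CPM in any library. The part of these other cell types in the differences between the groups was not tested.

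Interferon-stimulated genes were lower in TRAP for 34 of 37 tested, against 29.5% of all genes, with a median log2 fold change of -3.30 and 907 to 999 CPM in sum in TRAP and 3198 to 3223 in the cultures. Among effector genes, Oasl1 was at 0.129 to 0.499 CPM (median 0.338) against 58.8, 56 and 60.3 CPM and Ifi44 at 0.299 to 0.616 CPM (median 0.387) against 43.2, 47.4 and 44.7 CPM. The groups were separated in both, and culture values lay within a narrow range. Ifi27, a mitochondrial interferon-induced protein, was the only member that was higher, at 418 to 489 CPM (median 447) against 224, 214 and 228 CPM (log2 fold change 1.01). Ifi27 lay below the cutoff in several alternatives, among them DESeq2 size factors (0.98), upper-quartile scaling (0.81), library totals (0.55) and TRAP replicates 1 and 2 alone (0.95), and also without TRAP replicate 4 (0.98) or culture replicate 2 (0.99). Macrophage markers and AAV exposure went with the cultures here, and their part was not tested.

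Interferon-stimulated genes are known to be switched on through a promoter element that interferon regulatory factors bind. The letters GAAA, any 2 bases and GAAA again, searched on both strands in the 250 bases before each gene's start, were found for 15 of the 30 list members tested that RefSeq's promoter table (GRCm38.p6) holds. Of all 32851 promoters held there, 2.98% had them, and of 11729 genes tested here 3.31%. The median log2 fold change was -3.24 for the 15 members with a match and -2.68 for the 15 without. Shown are the 4 members with a match and the largest differences, with matches in capitals, which overlap one another in Isg15. Oas3 lies at chr5:120777660-120777909 on the minus strand, Rsad2 at chr12:26456453-26456702 on the minus strand, Ifit1 at chr19:34640639-34640888 on the plus strand and Isg15 at chr4:156200819-156201068 on the minus strand, each read 5′ to 3′ toward the gene.
Oas3: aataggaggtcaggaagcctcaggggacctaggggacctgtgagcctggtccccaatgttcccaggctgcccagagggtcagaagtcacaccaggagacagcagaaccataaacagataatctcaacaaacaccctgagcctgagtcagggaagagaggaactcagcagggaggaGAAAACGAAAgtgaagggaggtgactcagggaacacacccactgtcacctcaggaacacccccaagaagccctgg
Rsad2: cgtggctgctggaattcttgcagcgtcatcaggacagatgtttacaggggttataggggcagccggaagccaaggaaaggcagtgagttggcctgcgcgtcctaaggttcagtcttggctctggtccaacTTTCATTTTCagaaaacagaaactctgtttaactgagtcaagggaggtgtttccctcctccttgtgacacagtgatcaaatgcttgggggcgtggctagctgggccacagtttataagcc
Ifit1: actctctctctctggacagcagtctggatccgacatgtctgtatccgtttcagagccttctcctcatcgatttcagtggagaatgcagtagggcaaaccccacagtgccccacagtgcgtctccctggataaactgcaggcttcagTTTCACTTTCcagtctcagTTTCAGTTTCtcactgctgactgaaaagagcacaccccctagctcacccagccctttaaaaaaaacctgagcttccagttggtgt
Isg15: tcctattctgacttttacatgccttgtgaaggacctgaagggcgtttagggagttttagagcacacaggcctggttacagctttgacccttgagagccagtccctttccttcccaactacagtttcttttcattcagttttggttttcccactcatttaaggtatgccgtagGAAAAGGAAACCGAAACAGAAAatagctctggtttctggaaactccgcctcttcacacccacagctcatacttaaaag

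Of the genes whose promoters are shown, Oas3, an activator of RNase L, was at 0.265 to 0.899 CPM (median 0.424) in TRAP and 45.5, 44.3 and 46.9 CPM in culture. Rsad2, the antiviral enzyme viperin, was at 1.23 to 3.26 CPM (median 1.91) against 184, 176 and 172 CPM, and Ifit1, which binds viral RNA, at 1.16 to 3.94 CPM (median 1.9) against 180.4, 177 and 187 CPM. Isg15, a ubiquitin-like protein, was at 0.711 to 1.16 CPM (median 0.972) against 33.3, 36.1 and 37.5 CPM (log2 fold change -5.26, standard error 0.13, adjusted p = 1.98e-10 in edgeR). In each of these genes the highest TRAP library was far below the lowest culture.

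Other immune genes were divided. Of 20 NF-κB and chemokine genes, 10 were lower in TRAP and 3 higher, where 1 was higher with library totals or TRAP replicates 1 and 2 alone and 5 with replicates 3 to 6. Csf1, the macrophage growth factor, was at 41.8 to 68.5 CPM (median 59.2) against 365, 386 and 381 CPM, Il6 at 0 to 0.0758 CPM against 1.65, 1.62 and 2.14 CPM, and Sod2, the mitochondrial superoxide dismutase that NF-κB induces, was higher at 321 to 555 CPM (median 514) against 136, 139.9 and 141 CPM. Acute-phase and complement genes were higher in 9 of 16 and lower in 5, against 5 higher and 6 lower with library totals and 8 higher and 3 lower with TRAP replicates 3 to 6. Haptoglobin (Hp), which adipocytes secrete, is named among the most abundant genes above. C6, a terminal complement component, was at 15.4 to 34.9 CPM (median 20.1) against 0.168, 0.226 and 0.0959 CPM, and Itih4 was lower, at 0.0998 to 0.556 CPM (median 0.371) against 22.3, 22.2 and 21.5 CPM. Of 8 genes of MHC class II presentation, 4 were higher and 2 lower. H2-Aa was at 3.64 to 8.19 CPM (median 6.52) in TRAP with no read in the cultures, H2-DMb1 at 18.7 to 64.5 CPM (median 44.5) against 2.46, 2.45 and 2.33 CPM, and the costimulatory gene Cd86 was lower, at 0.15 to 0.543 CPM (median 0.207) against 7.61, 7.9 and 7.29 CPM. The macrophage markers other than Cd74 were low in the same TRAP libraries, and the source of the MHC class II reads was not tested.

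Mitochondrially encoded mRNA and nuclear noncoding RNA were lower in TRAP. All 13 mRNAs of the mitochondrial genome were lower, with a median log2 fold change of -6.00 and 215 to 261 CPM in sum in TRAP and 17163 to 18732 in the cultures. The mitochondrial genome took 0.019 to 0.0237% of reads in TRAP and 2.12 to 2.31% in the cultures. mt-Co1, a subunit of cytochrome oxidase, was at 104 to 135 CPM (median 108) against 10029, 10167 and 10955 CPM, and mt-Atp6, of ATP synthase, at 6.56 to 12 CPM (median 8.63) against 995, 919.5 and 1039.5 CPM. Nuclear genes of the same complexes did not share this, with 71 of 78 not called, 4 higher and 3 lower. The number higher was 2 with upper-quartile scaling, 1 with library totals, 6 with TRAP replicates 1 and 2 alone and 2 with replicates 3 to 6. Their median was 0.31, and -0.16 with library totals alone. Of 11 nuclear noncoding RNAs, 9 were lower and 2 not called. Malat1, an RNA of nuclear speckles, was at 494 to 2894 CPM (median 1316) in TRAP and 12725, 11507 and 11547 CPM in culture, and the groups did not overlap. Imprinted genes were split, with 7 of 19 higher (4 with library totals) and 10 lower. Peg3, a paternally expressed zinc finger gene, was at 142 to 409 CPM (median 173) against 69.3, 64.7 and 65.2 CPM, while H19 was at 50.2, 54.6 and 49 CPM in the cultures with 3 reads in TRAP, and Rian, a noncoding RNA of the Dlk1-Dio3 cluster, at 0.329 to 8.65 CPM (median 1.99) against 50.1, 40.1 and 39 CPM.

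Ribosomal protein mRNAs include that of the tagged protein. Of 78, 54 were not called, 23 were lower and 1 was higher, with a median of -0.64, and 45 were lower with library totals. The one that was higher was Rpl10a, the protein that the transgene carries, at 681 to 743 CPM (median 706) in TRAP and 98.9, 102 and 109 CPM in culture (log2 fold change 2.78, standard error 0.062, adjusted p = 1.15e-10 in edgeR). Whether the added reads come from the transgene was not tested. Rplp0, of the ribosomal stalk, was at 159 to 213 CPM (median 168) against 659, 709 and 705 CPM. Replication-dependent histone mRNAs were lower in 31 of 52 tested and higher in 5, among them Hist1h2bc at 143 to 172 CPM (median 159) against 29.9, 32.3 and 35.6 CPM. Their sum was above that of the cultures, at 498 to 558 CPM in sum in TRAP and 300.2 to 319 in the cultures. Near-identical histone copies share reads, as do Hspa1a and Hspa1b, so values of single copies are uncertain.

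Growth and stress programs were less uniform. Of 26 cell cycle genes, 14 were lower in TRAP and 1 higher, or 16 and 0 with TRAP replicates 1 and 2 alone and 14 and 2 with replicates 3 to 6. Ccnd1, cyclin D1, was at 1.03 to 2.83 CPM (median 1.56) against 89.9, 88.3 and 94.7 CPM, and Cdk1 at 0.452 to 1.05 CPM (median 0.861) against 6.2, 7.07 and 7.42 CPM, whereas Pcna was at 31.4 to 40.4 CPM (median 33.4) against 33.8, 36 and 37.2 CPM and was not called. Of 24 immediate-early and heat-shock genes, 8 were lower and 3 higher, while none was higher with TRAP replicates 1 and 2 alone and 5 were with replicates 3 to 6, with Hspa1b at 1.41 to 2.39 CPM (median 1.58) against 33, 31 and 33.4 CPM. Of 18 hypoxia-responsive genes, 8 were lower and 4 higher, and the median log2 fold change was 0.07 with TRAP replicates 1 and 2 alone and -1.04 with replicates 3 to 6. Adm, adrenomedullin, was at 0.539 to 4.1 CPM (median 3) against 149.9, 136 and 150.1 CPM, and Pfkfb3, which speeds glycolysis, was higher at 1234 to 2261 CPM (median 1483) against 204, 179.5 and 189 CPM. Of 14 glucocorticoid-responsive genes, 4 were lower and 2 higher. With TRAP replicates 1 and 2 alone 8 were lower and 3 higher (median -1.88), and with replicates 3 to 6 alone 2 were lower and 3 higher (median 0.18). Angpt4 was at 0.0856 to 0.29 CPM (median 0.154) against 10.4, 12 and 12.9 CPM and Errfi1 at 9.94 to 24.7 CPM (median 21) against 191, 179 and 191 CPM. Angpt4 is counted among the 14 as listed, and whether it responds to glucocorticoids was not tested. Clock genes were 5 higher (1 with library totals), 5 lower and 9 not called. Npas2 was at 0.181 to 0.485 CPM (median 0.377) in TRAP and 13.3, 11.3 and 12.9 CPM in culture, and its paralog Clock at 262 to 315 CPM (median 275) against 122, 120.5 and 119.9 CPM. Time of day at collection is not given in the sources used here.

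The genes at the centre of the study were compared last. Irf3 (chr7:44997648-45002848) was at 18.6 to 25.5 CPM (median 23.3) in WT TRAP and 47.2, 46.1 and 46.1 CPM in the WT cultures (log2 fold change -1.03, standard error 0.086, adjusted p = 1.14e-06 in edgeR). All TRAP libraries lay below all cultures, for which an exact two-sided permutation test on log2(CPM + 0.1) over 84 splits gave p = 0.0238, the smallest it can give. The change lay at the fold-change cutoff and was below it without TRAP replicate 3 (log2 fold change -0.95). It was larger with library totals (-1.49) and with an offset for transcript length (-1.49). The cultures carry the silent IRF3-2D allele, and whether any of their Irf3 reads come from it was not tested. Aig1, the FAHFA hydrolase gene of the study (chr10:13647054-13868980), was at 6.72 to 8.52 CPM (median 7.24) and 7.47, 6.92 and 7.1 CPM (log2 fold change 0.06, standard error 0.1, adjusted p = 0.579 in edgeR), and the exact permutation test gave p = 0.524. The groups overlapped, and the value turned with the processing, from -0.40 with library totals (adjusted p = 0.0044) to 0.50 with an offset for transcript length (adjusted p = 0.021). Adtrp, another known FAHFA hydrolase gene (chr13:41763148-41847684), was at 7.11 to 10.9 CPM (median 9) in TRAP and at 0.303, 0.452 and 0.544 CPM in the cultures (log2 fold change 4.36, standard error 0.21, adjusted p = 1.97e-08 in edgeR), and the exact permutation test again gave p = 0.0238. In mean TPM, Aig1 was at 11.7 in TRAP and 11.2 in culture, and Adtrp at 20.1 and 1.5.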

How the data were processed

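RNA was sequenced from 6 WT TRAP and 3 WT culture libraries after ribosomal RNA depletion. The authors quantified reads per transcript with Salmon 1.4.0 and deposited estimated counts (expected counts), TPM and effective lengths for 118733 transcripts. Here estimated counts were added up by gene following GENCODE M21 (GRCm38, 117850 transcripts matched), while the study used a later GENCODE release, and were rounded to whole numbers. Unmatched transcripts, with 0.409 to 0.947% of reads, were kept as single entries. Genes passing filterByExpr were tested with edgeR 4.0.16 (R 4.3.3), by the quasi-likelihood test with TMM scaling and Benjamini-Hochberg adjustment. Fitted fold changes used the default prior count of edgeR. A prior count of 2 was used for log2 CPM in correlations and principal components, not in the fit. CPM used TMM-scaled library sizes, so they do not add up to the same total in each library. The deposited TPM were used for comparisons between genes. On simulated counts 80% of 200 genes changed by 1.5 on the log2 scale were recovered at the adjusted p cutoff alone, with 5 false calls. Both cutoffs together left 2 false calls. In that simulation 200 of 16436 genes were changed, while 46.9% of genes were called in the real data. DESeq2 1.42.0 and other settings served as alternatives. Intervals and floors cover counting error only.

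The libraries, gene lists and tests were chosen with earlier results of these data known. The text names the 10 protein-coding genes with the largest change in each direction, the 10 most abundant on 1 side only, the 10 with the highest TPM, up to 4 members per list (2 by abundance, 2 by change) and the genes of the study. Some genes that this rule names are not reported here. Aldh1a3, Apln, Cd74, Cfd, Col15a1, Col18a1, Col23a1, Fabp3, Hoxa9, Hoxb9, Hoxc11, Hoxc13, Ifit1, Ighm, Igkc, Isg15, Lpar1, Oas3, Pdgfra, Pitx1, Pparg, Rsad2 and Wt1 were added after their values were seen.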

Additional observations from a re-analysis of the deposited data

Results flagged for a closer look

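Among 146 named genes checked in the 6 WT TRAP libraries, 10 held 1 library far from the others by Dixon's ratio of gap to range at the 95% level, where chance gives about 1 in 20. Rplp0 was at 213 CPM in replicate 3 against 159 to 174 CPM in the others (ratio 0.73). Pcna was at 40.4 CPM in replicate 4 against 31.4 to 34.6 CPM (ratio 0.645). Cd86 was at 0.543 CPM in replicate 6 against 0.15 to 0.291 CPM (ratio 0.642). Wt1 was at 2.91 CPM in replicate 5 against 0.329 to 0.84 CPM (ratio 0.802). Replicate 5 also had the highest sum of mesothelial genes, 40.5 CPM against 5.85 to 22.2 CPM in the other TRAP libraries. Itga8, with 7 TRAP reads, gave 0.806 in replicate 5. Mmp13, Ngfr, P4ha3, Pgr and Tbx1 each gave a ratio of 1, because the 1 or 2 TRAP reads of each lay in 1 library. The groups of 3 cultures are too small for this check.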

How the results depend on the processing

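The counts of called genes moved with the filter, the cutoff and the scaling. At least 10 counts in every library left 4035 called genes, 1787 higher and 2248 lower in TRAP, since it removes genes absent from 1 group, and library totals alone gave 1746 higher. Without a fold-change cutoff 13195 genes passed, 6266 of them higher. Leaving out each library gave 7535 to 7804 called genes. Culture-only genes numbered 350 with TRAP replicates 1 and 2 alone and 205 after thinning to the smallest library, and a limit of 5 CPM left 25 TRAP-only and 39 culture-only genes. Irf3 was below the fold-change cutoff with no filter (log2 fold change -0.996), with TRAP replicates 1 and 2 alone (-0.99) and without TRAP replicate 3. Its range over libraries left out was -1.07 to -0.95. A glmTreat test of Irf3 against a log2 fold change of 1 gave an adjusted p of 0.337 at -1.03. The change of Irf3 was larger with library totals (-1.49), the transcript length offset (-1.49), upper-quartile scaling (-1.24) and the 10-count filter (-1.21). Aig1 changed sign with upper-quartile scaling (-0.14), library totals (-0.40), the 10-count filter (-0.12) and protein-coding genes only (-0.024). Replicate numbers did not pair the samples (correlations 0.01, -0.003 and 0.01), and a replicate block gave 7694 called genes and Aig1 at -0.020. With library totals Pparg was at -0.23 and Scd1 at -0.0071, and with TRAP replicates 1 and 2 alone Cfd was at 0.35. Of 3942 values of other named genes under 27 alternatives, 3892 kept their direction and call, 27 lost and 20 gained the call. The cause of these shifts was not tested otherwise. Depth limits statements on genes with fewer than 3 reads per library.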

Other observations

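Ighm, the heavy chain of immunoglobulin M, was at 599.9 to 934 CPM (median 801) in WT TRAP and at 0.404, 0.113 and 0.0959 CPM in the cultures (log2 fold change 11.83). The κ light chain gene Igkc stayed between 0.194 and 0.514 CPM in the same TRAP libraries. The 2 genes belong to no list used above, and the source of the Ighm reads was not tested.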
